A study of Mus musculus with 2 samples.

Results

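Chromatin accessibility at 10 genes of the SMAD and bone morphogenetic protein (BMP) signalling route was examined in mouse megakaryocyte-erythroid progenitors (MEP), the bone marrow cells from which red cells and platelets arise. The genes were Smad1, Smad2, Smad3, Smad4, Smad5, Smad6, Smad7, Bmpr1a, Bmpr2 and Id1. They were taken by name, with earlier results of these data known and with no threshold on a measured value, and are 10 of the 21853 protein-coding genes with a transcription start site (TSS) in the mm10 GENCODE annotation. The assay was ATAC-seq, in which the Tn5 transposase cuts open chromatin and tags it for sequencing. There was 1 group, MEP from male C57BL/6J mice 5 to 6 weeks old, with no mutant allele and no treatment named in the labels. It had 2 libraries of 50000 cells, replicates 1 and 2, which refer to the same donor record, so separate animals are not stated. With 1 group and peak lists without read counts there is no test between samples, the sequencing depth is unknown, and each value is described beside the same value for all genes or all regions. Accessibility is not expression: an open promoter does not show that a gene was transcribed.

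In BMP and TGF-β signalling a ligand brings together type I and type II receptor kinases, and the type I receptor phosphorylates receptor-regulated SMAD proteins. Smad1 and Smad5 serve the BMP branch, Smad2 and Smad3 serve the TGF-β and activin branch, and both kinds join Smad4, the common partner, to act on genes in the nucleus. Smad6 and Smad7 inhibit the route and are themselves induced by it, and Id1, an inhibitor of basic helix-loop-helix factors, is a classic BMP target. In the red cell lineage the BMP branch, through Smad5, is known for stress erythropoiesis in the mouse.

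Promoters of marker genes were examined as a check of the label, and those of the erythroid lineage were open. Of 8 MEP and erythroid markers 7 had an open promoter in each library, against 45.7% of all genes. Gata1, the erythroid master regulator, was among them, with folds of 4.69 and 5.12 in replicates 1 and 2. The highest of the 7 was Tfrc, with 10.4 and 11.0. The eighth, Gfi1b, was present in the longer pseudoreplicated lists (4.47 and 3.78). None of the 6 granulocyte and macrophage, 3 T cell and 4 stem cell markers passed. Of 5 megakaryocyte markers 1 passed, Gp1ba (7.02 and 7.18). So did 1 of 3 B cell markers, Pax5 (9.62 and 11.2), and 1 of 3 genes of unrelated tissues, Snap25 (10.3 and 11.8). Of the stem cell markers, Cd34 and Flt3 were in both pseudoreplicated lists. The share of each cell type in the libraries was not measured.

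Nearly all of the 10 promoters were open in both libraries, but with low signal for an open promoter. Accessible here means that the IDR-thresholded list of each library held a region reaching to within 1 kb of any start site of the gene's coding transcripts. IDR, the irreproducible discovery rate, measures whether a peak keeps its rank when the calling is repeated. This held for 9 of the 10 genes, where the background over all genes was 45.7%. The exception was Bmpr1a, and in the longer pseudoreplicated lists all 10 passed, against a background of 56.5%. The value given for each promoter is the authors' fold over background at the summit of the strongest peak. Over the 9 genes the fold, averaged over the libraries, had a median of 6.04 and ran from 4.23 at Smad7 to 7.88 at Smad4, while the 9988 accessible promoters of all genes had a median of 8.61 and quartiles of 7.01 and 10.3. All 9 genes lay below that median, and Smad4, the highest, was above 39.0% of accessible promoters. The medians by library were 5.73 and 6.58 for the 9 genes in replicates 1 and 2 (SD 0.601, n = 2), and 8.38 and 8.82 for all accessible promoters. Of the 9 genes Smad4 alone passed the median of a library, with 8.49 in replicate 1. The authors' significance behaved alike, with a median −log10 p, averaged over the libraries, of 23.9 for the 9 genes and 49.2 for all. When only regions in the upper 50% by fold of each list were kept, none of the 10 promoters passed and 27.7% of all genes did.

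**Figure D1:**
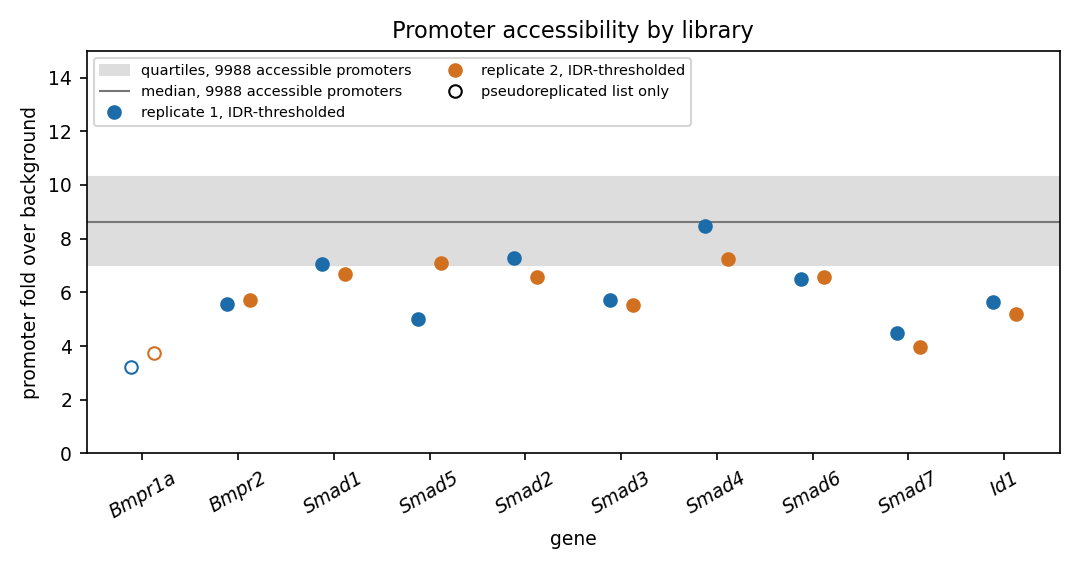
Promoter fold over background (y axis) of each of the 10 genes (x axis), with 1 point per library; open points are regions that, of a library's own lists, only the pseudoreplicated one held, and the grey band and line show the quartiles (7.01 and 10.3) and median (8.61) of the 9988 accessible promoters. All points lie below the median line, Smad7 lowest among the filled points (4.48 and 3.98), and only Smad5 (4.99 and 7.09) is spread widely between the libraries.

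Of the receptor genes, Bmpr2 had an accessible promoter and Bmpr1a did not. Bmpr1a encodes a type I BMP receptor (chr14:34410734-34503341, minus strand), and its promoter was in neither IDR-thresholded list. In the pseudoreplicated lists its region lay at downstream start sites, with folds of 3.21 and 3.75 in replicates 1 and 2. Bmpr2 encodes a type II receptor (chr1:59763400-59879014, plus strand), and its promoter fold was 5.56 and 5.70 (mean 5.63, SD 0.0992, n = 2), above 7.85% of accessible promoters. Distal regions were taken from the conservative list, which was thresholded on both true replicates together. They are regions more than 1 kb from every protein-coding TSS of any gene, with the summit inside the gene or within 50 kb of its most upstream TSS. Each receptor gene had 3, against a median of 2 over all genes and of 3 over genes within 1.5 times of either length. Strongest is used below for the highest pooled fold, the fold in the conservative list. The strongest of Bmpr1a, at chr14:34548964-34549730, lay 46.2 kb upstream of the most upstream TSS in an intron of Ldb3 and had a pooled fold of 8.11. Distance alone does not tell which gene such a region controls. Its folds in the libraries were 7.70 and 8.21, and it was in both IDR-thresholded lists. The strongest of Bmpr2, at chr1:59740019-59740576, was intergenic, 23.3 kb upstream, with a pooled fold of 7.11 and folds of 7.32 and 5.38 in the libraries. It passed the IDR threshold in replicate 1 alone.

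The windows of 100 bases on each side of these summits are shown because they differ in the motifs they hold. Capitals mark GATA motifs, the sites of GATA factors such as Gata1 (AGATAA or AGATAG or TGATAA or TGATAG on either strand), and the core motif of CTCF, a chromatin boundary factor (CCANNAGNNGGC on either strand). The plus strand of mm10 is printed, chr14:34549477-34549677 for Bmpr1a and chr1:59740044-59740244 for Bmpr2.
Bmpr1a: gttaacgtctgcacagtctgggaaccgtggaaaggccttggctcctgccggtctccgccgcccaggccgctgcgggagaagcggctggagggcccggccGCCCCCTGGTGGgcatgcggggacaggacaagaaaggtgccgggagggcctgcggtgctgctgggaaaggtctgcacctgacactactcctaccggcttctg
Bmpr2: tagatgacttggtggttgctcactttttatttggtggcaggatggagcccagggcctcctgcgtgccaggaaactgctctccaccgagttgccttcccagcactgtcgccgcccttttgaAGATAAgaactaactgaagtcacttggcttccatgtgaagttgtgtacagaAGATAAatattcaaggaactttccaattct
The Bmpr2 window held 2 GATA matches and no CTCF core, and the Bmpr1a window held a CTCF core and no GATA match. All 3 distal regions of Bmpr2 held a GATA motif, with 7 matches in all, and 1 of the 3 of Bmpr1a did. Of all distal windows 53.8% held a GATA motif and 16.5% a CTCF core. Counts for single genes are small, and their difference from these shares was not tested. A match is a stretch of letters and does not show that a factor was bound.

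The BMP branch genes Smad1 and Smad5 each had an intronic region among the stronger distal regions. Smad1 (chr8:79338395-79399518, minus strand) had a promoter fold of 7.05 and 6.69 (mean 6.87, SD 0.256, n = 2), and the libraries were close. Its 4 distal regions all lay inside the gene. The strongest, at chr8:79361173-79361648 in an intron 38.2 kb downstream of the TSS, had a pooled fold of 9.51, higher than 87.2% of distal regions, with 7.51 and 8.91 in the libraries. The next, with a pooled fold of 7.70 and folds of 7.01 and 6.44, covered an exon at chr8:79339625-79340010, 59.8 kb from the TSS, and was in neither IDR-thresholded list. The region at chr8:79375024-79376098, in an intron, followed with 7.38 and was in both.

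Smad5 (chr13:56703010-56742377, plus strand) was the gene whose promoter differed most between the libraries, with a fold of 4.99 in replicate 1 and 7.09 in replicate 2 (mean 6.04, SD 1.49, n = 2). The summits lay 653 and 664 bp downstream of the most upstream TSS, within 6 bp of another annotated start site. Of the libraries' lists, only the pseudoreplicated ones covered the most upstream TSS itself, at 3.88 and 3.03, while the wider region of the conservative list spanned all 3 start sites. Smad5 had 1 distal region, in an intron 32.7 kb from the TSS at chr13:56735144-56735855, with a pooled fold of 9.73 and folds of 8.55 and 9.15. It passed the IDR threshold in replicate 2 alone, although it was higher than 88.7% of distal regions. The 2 intronic summit windows, chr8:79361221-79361421 and chr13:56735577-56735777 on the plus strand, are shown with the same capitals.
Smad1: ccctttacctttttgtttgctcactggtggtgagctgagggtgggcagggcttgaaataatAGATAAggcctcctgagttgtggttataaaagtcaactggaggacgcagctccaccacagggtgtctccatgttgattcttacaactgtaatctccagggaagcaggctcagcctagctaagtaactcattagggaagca
Smad5: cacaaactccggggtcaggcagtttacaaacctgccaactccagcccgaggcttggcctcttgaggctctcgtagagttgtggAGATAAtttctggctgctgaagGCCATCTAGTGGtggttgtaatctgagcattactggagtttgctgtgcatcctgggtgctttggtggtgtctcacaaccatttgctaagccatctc
Both held 1 GATA match. In the Smad5 window its centre was 14.5 bp from the summit and a CTCF core match followed it, and in the Smad1 window it was 36.5 bp from the summit. The Smad5 window was the only 1 of the 44 distal windows with both motifs (2.27%), against 4.16% of all distal windows.

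Smad3, of the TGF-β and activin branch, had the most distal regions of the 10 genes by this rule, though not within 50 kb or 100 kb, where Id1 had more. It lies at chr9:63646767-63757994 on the minus strand. Its promoter fold was 5.73 and 5.52 (mean 5.62, SD 0.147, n = 2), higher than 7.79% of accessible promoters. Of its 10 distal regions 8 lay in its own introns, and 97.9% of all genes had fewer than 10. Smad3 is 111 kb long, and genes within 1.5 times of that length had a median of 3 distal regions. Counting only regions within 50 kb of the TSS left 6, against 7 at Id1, and 90.3% of genes had fewer by that rule. Within 100 kb or inside the gene Smad3 still had 10, against 13 at Id1 and 11 at Smad7. The strongest, intergenic at chr9:63774721-63775504 and 17.0 kb upstream, had a pooled fold of 8.21 and folds of 6.92 and 7.24. The next were intronic, at chr9:63726247-63727372 with a pooled fold of 6.19 (6.17 and 5.06) and at chr9:63705003-63705463 with 6.10 (5.12 and 6.29). The libraries' own IDR-thresholded lists held 4 and 5 distal regions of Smad3, and their pseudoreplicated lists 13 and 12. The region at chr9:63785390-63785949 had 4.57 in replicate 1 and 6.82 in replicate 2, the largest ratio between the libraries among the 42 distal regions with a fold in both pseudoreplicated lists, at 1.49. A GATA motif was found in 9 of the 10 windows, with 13 matches, and in 53.8% of all distal windows. The window of the strongest, chr9:63774939-63775139 on the plus strand, is printed as an example of them.
Smad3: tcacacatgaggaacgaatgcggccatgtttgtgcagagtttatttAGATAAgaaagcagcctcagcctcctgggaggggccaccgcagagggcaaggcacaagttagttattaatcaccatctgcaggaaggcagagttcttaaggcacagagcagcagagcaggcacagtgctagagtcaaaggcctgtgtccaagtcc

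Smad2, the other SMAD of that branch, had a higher promoter fold and few distal regions. It lies at chr18:76241580-76310963 on the plus strand, and its promoter fold was 7.29 and 6.58 (mean 6.93, SD 0.506, n = 2), in a region of 973 and 1045 bp. It had 1 distal region, intronic and 18.3 kb from the TSS at chr18:76259535-76260029, with a pooled fold of 5.45 and folds of 4.75 and 5.15. That region was in neither IDR-thresholded list and held no GATA match. Smad2 is 69.4 kb long, and genes of like length had a median of 2.

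Smad4, the common partner, held the distal region and the promoter of highest fold among the 10 genes. It lies at chr18:73639009-73703780 on the minus strand. The promoter fold was 8.49 and 7.26 (mean 7.88, SD 0.873, n = 2). The distal region, in an intron at chr18:73659764-73660132 and 43.8 kb from the TSS, had a pooled fold of 12.5, higher than 97.5% of distal regions, and folds of 10.5 and 11.9. By −log10 p it came second, with 88.8 against 141 for an upstream region of Smad6, and the Smad2 promoter ranked above that of Smad4 (higher than 36.7% and 32.3% of accessible promoters). A GATA match lay 1.5 bp from the summit of the Smad4 intron region. Of the 5 distal regions of Smad4, the next in strength lay 45.2 kb upstream in an intron of Elac1 (chr18:73748711-73749189, pooled fold 7.10, in the libraries 7.10 and 6.11), and then came an intronic region at chr18:73688472-73688794 with 6.38 (4.90 and 6.56). All 5 held a GATA motif, as did 53.8% of all distal windows.

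**Figure D2:**
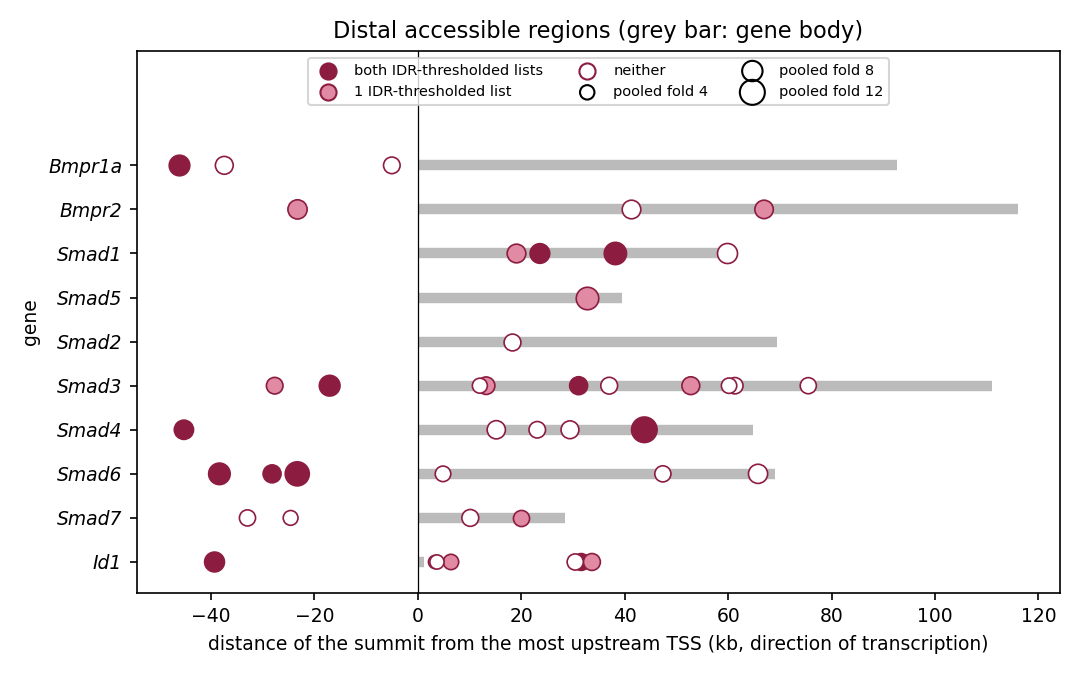
Position of the 44 distal regions of the 10 genes (y axis) relative to the most upstream TSS of each gene (x axis, kb in the direction of transcription); circle area follows the pooled fold, fill shows how many IDR-thresholded lists held the region, and grey bars are gene bodies. The largest circles are the Smad4 intron region (12.5) and the upstream region of Smad6 (11.1), and 22 of the 44 circles are open.

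The 44 distal regions of the 10 genes were of ordinary strength: their shares in the stronger classes were lower than those of all distal regions, but each interval below includes the share of all. Pooled fold ran from 3.38 to 12.5 with a median of 5.99, against 6.36 for all 32778 distal regions. By share, 15 of 44 (34.1%, Wilson 95% interval 21.9 to 48.9) were in the upper 50% by fold of the conservative list, against 45.5% of all. Both IDR-thresholded lists held 12 (27.3%, 16.3 to 41.8), against 38.9% of all, and neither held 22 (35.8 to 64.2%), against 40.4%. Both pseudoreplicated lists held 42 (95.5%, 84.9 to 98.7), against 90.9%. Median width was 456 bp, against 472 bp. Introns held 28 of the summits (63.6%, 48.9 to 76.2, against 50.9% of all), intergenic sequence 15 (34.1%, 21.9 to 48.9, against 44.7%) and an exon 1 (2.27%, against 4.36%). The gene's own body held 25, and for 35 the nearest TSS was that of the gene itself. Both counts depend on the rule that assigns regions to genes, and no such share of all distal regions was counted. These intervals cover counting error only, and regions of 1 gene are not independent of each other.

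Smad6, an inhibitory SMAD that acts mainly on the BMP branch, had 3 regions in a row upstream, which were intergenic and in both IDR-thresholded lists. It lies at chr9:63953076-64022059 on the minus strand. At 23.3 kb upstream, chr9:64045005-64045798 had a pooled fold of 11.1, higher than 94.5% of distal regions, and folds of 10.2 and 10.9. At 38.4 kb, chr9:64060061-64060916 had 8.89 (8.66 and 8.27). Between them, 28.2 kb upstream, chr9:64049876-64050389 had 6.19 (5.50 and 6.57). The other 3 distal regions of Smad6 were intronic and in neither list, and the highest of them, at chr9:63956132-63956413, had 7.04 (6.56 and 5.88). The promoter fold was 6.51 and 6.59 (mean 6.55, SD 0.0615, n = 2), but the region called did not cover a start site. Its summits lay 1130 and 1111 bp upstream of the TSS, and with a window of 500 bp the promoter was not called. Of the libraries' lists, only the pseudoreplicated list of replicate 2 covered the start site itself, with a fold of 3.02. The summit window of the strongest upstream region (chr9:64045272-64045472, plus strand) is shown first, with 2 GATA matches in capitals, and then the summit window of the promoter region (chr9:64023082-64023282, minus strand), with capitals for the KLF motif, CCNCNCCC on either strand, the site of factors such as Klf1.
Smad6 upstream: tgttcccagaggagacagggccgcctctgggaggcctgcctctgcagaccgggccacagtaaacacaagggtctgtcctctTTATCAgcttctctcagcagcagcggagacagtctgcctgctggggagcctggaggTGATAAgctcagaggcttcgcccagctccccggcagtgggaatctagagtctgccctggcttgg
Smad6 promoter: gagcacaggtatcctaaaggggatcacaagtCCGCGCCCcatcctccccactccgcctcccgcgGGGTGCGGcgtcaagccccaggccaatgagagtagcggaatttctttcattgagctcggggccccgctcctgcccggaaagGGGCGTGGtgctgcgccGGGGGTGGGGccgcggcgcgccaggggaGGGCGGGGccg
The upstream window also held 4 matches of GTCTG, a short SMAD-binding word, and the promoter window held 6 KLF matches and no GATA match.

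Smad7, the inhibitory SMAD of both branches, had the lowest promoter fold of the 9 accessible genes. It lies at chr18:75367529-75395935 on the plus strand. The fold was 4.48 and 3.98 (mean 4.23, SD 0.355, n = 2), higher than 0.571% of accessible promoters, in a region of 1279 and 1268 bp with 6 summits in each library, the widest of the 9 in the IDR-thresholded lists. In the conservative list the Smad5 promoter region was wider, 1840 bp against 1288 bp. Its 4 distal regions were weak as well. The strongest, intronic at chr18:75377203-75378033 and 10.1 kb from the TSS, had a pooled fold of 5.44 (4.67 and 5.72). The next were chr18:75387131-75387674, in an intron, and chr18:75334270-75334809, 32.9 kb upstream, each with 4.99. Of the 4, 1 was in an IDR-thresholded list, that of replicate 2.

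**Figure D3:**
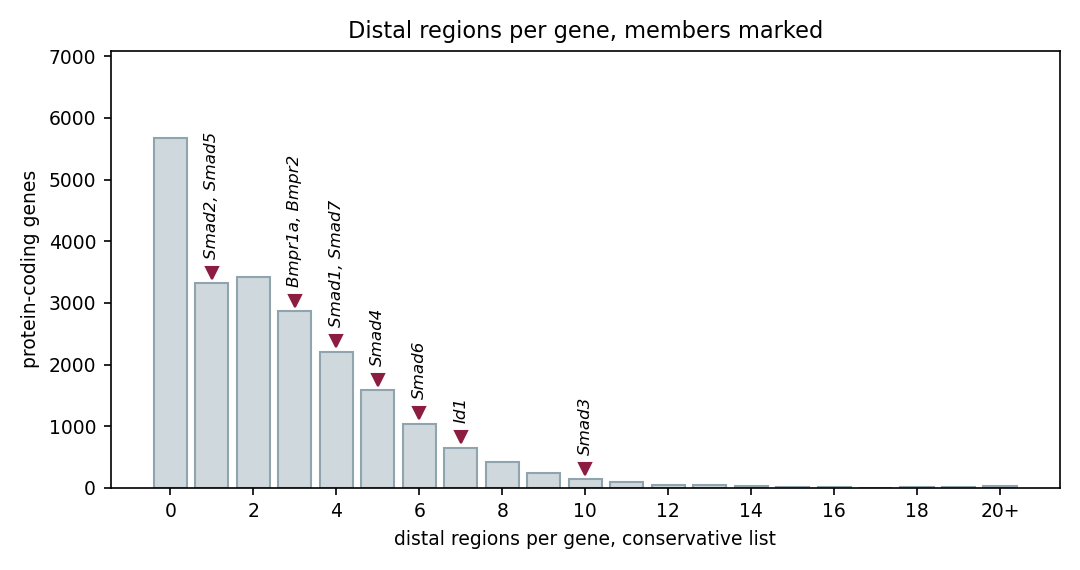
Number of protein-coding genes (y axis) by the number of distal regions per gene (x axis, 20 or more pooled in the last bar), with the 10 genes marked above their bars. Smad2 and Smad5 have 1 distal region, and Smad3, with 10, has more than 97.9% of genes.

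The 10 genes had more distal regions than the typical gene, with a range from 1 to 10. All 10 had at least 1, where the background was 74.0%, and 6 had at least 4 (Smad1, Smad3, Smad4, Smad6, Smad7 and Id1), where it was 30.1%. The median was 4 and the mean 4.40, against 2 and 2.63 for all genes and 3 and 3.43 for genes with an accessible promoter. The 10 genes are longer than most, with a median length of 66.9 kb against 17.4 kb. Within 50 kb of the TSS alone they had a mean of 3.70, against 2.29. The size of this difference moved with the list and the rule. The ratio of the means was 1.67 here, 1.15 when regions at the start sites of other genes were counted too, and 1.18 for regions in both IDR-thresholded lists.

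Id1, the target gene, was the shortest of the 10 at 1.16 kb and had 7 distal regions, more than 92.0% of genes. Genes within 1.5 times of its length had a median of 1. It lies at chr2:152736251-152737410 on the plus strand, and its promoter fold was 5.64 and 5.19 (mean 5.42, SD 0.316, n = 2), higher than 6.05% of accessible promoters. The strongest distal region, at chr2:152696471-152697084, lay 39.3 kb upstream in an intron of H13, with a pooled fold of 7.55 and folds of 6.11 and 8.38, and its nearest start site was that of Mcts2. The next lay downstream, at chr2:152769628-152770064 (33.7 kb, pooled fold 5.50, in the libraries 5.25 and 5.17) and chr2:152767707-152768135 (31.6 kb, 5.43, in the libraries 4.93 and 5.22), nearest to Cox4i2. A group of 3 regions 3.3 to 6.4 kb downstream was weak, with pooled folds of 3.38, 3.89 and 4.53. Of its 7 windows 2 held a GATA match and 3 held a CTCF core, out of 5 CTCF core windows among all 44. The shares of all distal windows were 53.8% for GATA and 16.5% for the CTCF core.

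A BMP response element is known from the Id1 promoter, and its spaced form was searched for in every gene body and within 50 kb of each TSS as GGCGCCNNNNNGTCT on either strand. There were 2 matches around the 10 genes. One, 6.88 kb upstream of Smad2, lay in no region of the conservative list, and the other lists were not searched for it. The other, at chr2:152739471-152739485, lay 3.22 kb downstream of the Id1 TSS inside the region chr2:152739468-152739687. That region had the lowest pooled fold of the 44, 3.38, with 3.76 in the pseudoreplicated list of replicate 2 and no region in that of replicate 1 or in either IDR-thresholded list. Of all conservative regions, 57 of 46200 (0.123%) held the element, and of distal regions 20 of 32778 (0.0610%). The lack of a match elsewhere says only that these letters, with this spacing, are not there. That holds for the Id1 promoter too, where the search found no match. The element known there was therefore not recovered by these letters, and the downstream match was not shown to be it. Printed below are the Id1 promoter up to the TSS (chr2:152736108-152736250), the strongest distal window with its CTCF core in capitals (chr2:152696845-152697045) and the match with 30 bases on each side, its 15 bases in capitals (chr2:152739441-152739515), all on the plus strand.
Id1 promoter: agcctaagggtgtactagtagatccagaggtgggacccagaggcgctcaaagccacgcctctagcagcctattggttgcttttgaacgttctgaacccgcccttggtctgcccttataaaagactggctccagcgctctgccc
Id1 upstream: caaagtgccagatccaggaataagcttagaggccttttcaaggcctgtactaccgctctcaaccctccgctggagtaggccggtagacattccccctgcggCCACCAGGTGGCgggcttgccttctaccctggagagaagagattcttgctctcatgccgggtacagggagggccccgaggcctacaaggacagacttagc
Id1 downstream: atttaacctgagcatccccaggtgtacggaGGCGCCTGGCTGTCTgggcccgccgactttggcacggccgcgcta
The promoter window held no GATA, KLF or ETS match and 1 GTCTG.

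Over all 44 distal windows, GATA motifs were the most frequent of the motifs searched. They were found in 29 (65.9%, Wilson 95% interval 51.1 to 78.1), against 53.8% of all distal windows. The interval includes the value of all windows. GTCTG was in 25 (56.8%, 42.2 to 70.3) against 45.2%, the KLF motif in 14 (31.8%) against 25.4%, the RUNX motif TGTGGT in 11 (14.6 to 39.4%) against 21.5%, and the CTCF core, searched only after the windows had been seen, in 5 (11.4%, 4.95 to 24.0) against 16.5%. The AP-1 motif TGANTCA was in 2 (4.55%) against 7.27%, an E-box followed by a GATA motif, the form bound by the Tal1 and Gata1 complex, in 2 (4.55%) against 2.78%, and the ETS motif CCGGAAG in 1 (2.27%) against 1.82%. The palindrome GTCTAGAC, the optimal SMAD site, was in none (0 to 8.03) against 0.195%. The E-box search (CANNTG, 7 to 9 bases, then GATAA) overlaps with the GATA motif. The windows had a median GC content of 53.0%, against 50.2% for all.

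**Figure D4:**
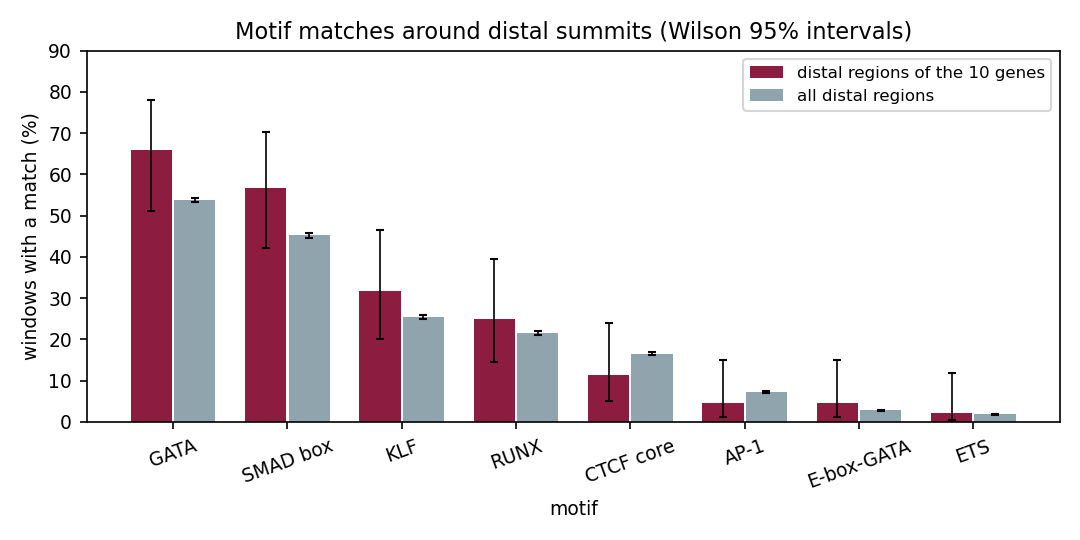
Share of summit windows with a match (y axis, percent) for each motif (x axis), in the 44 distal regions of the 10 genes and in all 32778 distal regions, with Wilson 95% intervals for counting error. GATA is the most frequent in both sets (65.9% and 53.8%), and for every motif shown the interval of the 44 regions includes the value of all regions.

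In the promoter windows no GATA motif was found and the KLF motif was the most frequent, each with an interval that includes the share of all promoter windows. Of the 9 promoter windows 0 held a GATA match (interval 0 to 29.9), against 17.9% of 13422 promoter windows, and 7 held the KLF motif (77.8%, 45.3 to 93.7), against 57.2%. Over their whole length, 860, 1840 and 726 bp, the promoter regions of Smad4, Smad5 and Smad6 held 1, 5 and 1 GATA matches. The SMAD palindrome GTCTAGAC was in 0 of the 9 windows, against 0.156% of all promoter windows, but the whole Smad7 promoter region held 1. Neither the GATA share nor the palindrome share over whole promoter regions of all genes was counted. Median GC content of the windows was 72.1%, against 63.2%, and Id1 was lowest with 52.2%. The KLF motif is rich in C, and the part of GC content in the difference was not tested.

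The libraries gave close values for the distal regions, but these came from the conservative list, thresholded on both replicates together. Their closeness was therefore set in part by that choice. Of the 42 distal regions with a fold in both pseudoreplicated lists, 27 were higher in replicate 2 and 15 in replicate 1. The ratio of the higher to the lower fold had a median of 1.10, and in 0 of 42 it passed 1.5. The fold is not scaled between libraries and the depth of each is unknown, so a difference of that size was not interpreted.

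**Figure D5:**
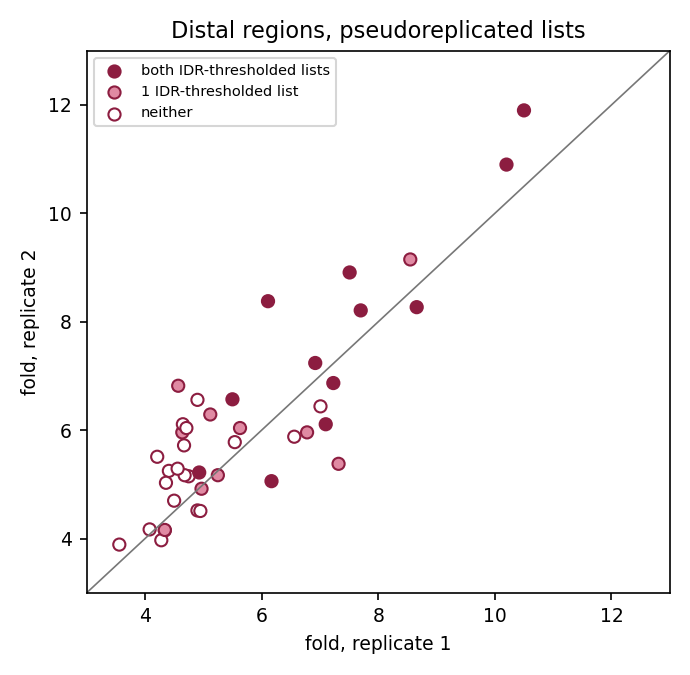
Fold over background in replicate 1 (x axis) and replicate 2 (y axis) for the 42 distal regions found in both pseudoreplicated lists, with the line of equal values; fill shows how many IDR-thresholded lists held the region. Points lie near the line, 27 above and 15 below, and the highest, at 10.5 and 11.9, is the Smad4 intron region.

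The other 49 genes of the pathway that were listed are given by role, with no test of a difference between roles, and the groups are small. Promoters of 22 were accessible in both libraries, close to the background of 45.7%, 2 in 1 library and 25 in neither. Both pseudoreplicated lists held 36 of the 49, against a background of 56.5%. The 22 had a median fold of 7.61, and the 49 had a median of 2 distal regions.

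Of the receptor genes 8 of 12 had a promoter accessible in both libraries. Among the activin and TGF-β receptors the folds in replicates 1 and 2 were 5.28 and 5.80 for Acvr1b and 5.91 and 9.54 for Acvr1c. Acvr2a had 6.41 and 5.24, and Acvr2b had 8.37 and 8.36. For Acvr1c the pseudoreplicated list of replicate 1 gave 8.32, from a stronger peak that its IDR-thresholded list did not hold. Tgfbr1 had 8.42 and 8.46, Tgfbr2 had 6.43 and 6.89, and Tgfbr3, a co-receptor, had 6.18 and 6.88 and 18 distal regions over 183 kb. Within 50 kb of its most upstream TSS Tgfbr3 had 5. Rgmb, a BMP co-receptor, had 5.80 and 6.85. The promoters of the BMP type I receptors were in neither library's IDR-thresholded list. As at Bmpr1a, those of Acvr1 (4.47 and 4.08) and Bmpr1b (4.16 and 3.21) were in both pseudoreplicated lists, and that of Acvr1 was also in the conservative list (4.38). Acvrl1, an endothelial receptor, had no promoter region in these lists. The co-receptor Eng had 3.31 and 3.50 in the pseudoreplicated lists and 3.58 in the conservative list.

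Of the ligand genes 3 of 12 were accessible in both libraries and 6 were in both pseudoreplicated lists. The 3 were Bmp6 (8.18 and 9.47), a regulator of iron balance, Tgfb3 (9.53 and 9.32) and Inhba (7.36 and 9.99), which encodes an activin subunit. Gdf15, a TGF-β family hormone released by erythroid precursors, had no promoter region in any list of a library but the most distal regions of the ligands, 10. Smad9, the remaining BMP-branch SMAD, was in both pseudoreplicated lists (3.63 and 3.77) but in neither IDR-thresholded list, and had 4 distal regions. Inhibitors and modulators were open at 7 of 13, and Skil, a repressor of SMAD activity, had the most distal regions with 7. Cofactors were open at 3 of 5, and Zeb2 had the most distal regions with 11. Within 50 kb of the TSS alone Zeb2 had 4, against 5 at Zeb1. The Zeb2 promoter was in both pseudoreplicated lists and the conservative list (3.30) but in neither library's IDR-thresholded list.

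Of the 6 other target genes Id2 alone was open in both libraries, with 9.37 and 9.94, against 5.64 and 5.19 at Id1. Id3 (4.97) and Erfe, the erythroid hormone that lowers hepcidin (5.40), passed in replicate 2 alone, and had 7 and 4 distal regions. Id4 was in the pseudoreplicated list of replicate 1 (5.39) and in the conservative list (6.24). Hamp, which encodes hepcidin and is a liver BMP target, had no promoter region in either library's lists.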

How the data were processed

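ATAC-seq peak lists of 2 MEP libraries were used as deposited; the alignments were not used here. The deposited lists are in narrowPeak layout on mm10, per the file headers. The deposited ratio column is the authors' fold over background at the summit, read from its place and values, and the deposited −log10 p column is the significance of each peak. Neither was scaled between libraries here. For the aligner, the caller and their versions, the sources used here give no name. Per the labels, replicate 1 was sequenced on 2 instrument models, and none is named for replicate 2.

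Peaks on the 21 main chromosomes that overlapped or touched were merged into regions carrying the fold and summit of the strongest peak by −log10 p (Python 3.11.15, pandas 2.3.3, numpy 2.4.6). The replicates' IDR-thresholded lists held 26353 and 28142 regions, their pseudoreplicated lists 60668 and 63635, and the conservative list 46200, of which 32778 lay over 1 kb from the 54361 protein-coding TSS of GENCODE. IDR-ranked lists, pooled lists and an archived list were not used. Overlap was counted from 1 bp. Shares have Wilson 95% intervals (scipy 1.17.1), which cover counting error only. Sequences and motif matches came from the RefSeq copy of mm10 (pysam 0.24.0). The steps that merged peaks and assigned regions to genes were tested on simulated data, and the motif steps were not. No test between samples was possible with 1 group.

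The 10 genes, the 49 pathway genes, the 32 markers and the motifs were chosen with earlier results of these data known, and the CTCF core was added after the windows had been seen. By the rule for names, the text gives all 10 genes, the strongest distal region of each (3 where there are more than 3), every receptor and target gene of the pathway (1 of them is not reported here), ligands open in both libraries and the gene with most distal regions of the other roles. Other regions and markers were picked as examples with their values in view. Alternatives were the peak list, window, distance, strength, motif form and leaving out each library.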

Additional observations from a re-analysis of the deposited data

How the results depend on the processing

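The number of the 10 genes with an accessible promoter stayed between 8 and 10 with pseudoreplicated lists, the conservative list, a window of 500 bp and either library alone, and was 0 with only the stronger 50% of regions in each list, where 27.7% of all genes passed. The count of 22 among the 49 pathway genes became 36 with pseudoreplicated lists, 34 with the conservative list and 10 with the upper 50% by fold. Of all genes 56.5%, 54.5% and 27.7% passed by the same rules, against 45.7% by the main rule. With a window of 500 bp the share of all genes was 44.4%. The 44 distal regions became 67 within 100 kb, 85 with the replicated list, 71 when every listed summit was counted, 15 in the upper 50% by fold and 12 in both IDR-thresholded lists, at an overlap of 1 bp and of 50% alike. With replicate 1 or replicate 2 left out there were 17 and 19, but these come from the IDR-thresholded list of the other library and not from the conservative list. The pseudoreplicated lists of replicates 1 and 2, alternatives chosen after seeing the data, gave 61 and 65. The type of list changed along with the library, and the part of either in the fall from 44 was not tested. Under each of these rules the mean per gene was above that of all genes, by a ratio of 1.15 to 1.81. The median promoter fold of 6.04 was 5.41 with the mean over summits. The GATA share of 65.9% was 38.6% with AGATAA alone (29.3% of all distal regions) and 79.5% over whole regions (69.4% of all), and it was above that of all distal regions in each alternative. For single genes, 37 alternative values moved, by over 1.5 times for a distal count or at least 1 SD between the libraries for a promoter fold, and 12 moved by less or not at all. The cause of these shifts was not tested. No paired analysis was possible because there is 1 group. Read depth is unknown, so a region missing from a list may lie below what that library could show.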
